A study of Mus musculus with 2 samples.

Results

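The genes of major histocompatibility complex (MHC) class II antigen presentation were followed through the cells of 2 mouse pancreatic tumors. The set was chosen by gene symbol and held 10 of the 32285 genes listed in the deposited matrices. It comprised H2-Aa, H2-Ab1, H2-Eb1, Cd74, Ciita, H2-DMa, H2-DMb1, H2-DMb2, H2-Oa and H2-Ob. Unique molecular identifiers (UMIs, each standing for 1 captured RNA molecule) of these genes were summed by cell class and by library, and professional antigen-presenting classes were set against tumour cells, fibroblasts, endothelium and granulocytes. None of the 10 genes named or formed a cell class, since all were kept out of the markers and out of the genes used for clustering.

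Tumors came from KPC cells, a mouse pancreatic cancer line, injected into the pancreas. The cells of 1 group (KPC-shV) carried a control hairpin and those of the other (KPC-shZEB1) a hairpin that targets Zeb1. Per the study's text, the hairpins were delivered by lentivirus with antibiotic selection, and the mice of both groups received gemcitabine, an agent that the labels do not mention. The study's text gives the mice of its pancreas models as 4 to 6 weeks old and of several strains, and the strain and sex of these 2 mice were not given in the sources used here. From each group, 1 tumor was cut up, digested and sequenced as whole cells from the 3′ end of the RNA without a sort, so that group, mouse, tumor, digestion and library coincide and cannot be told apart.

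After filtering, 11398 cells with a median of 3720 UMIs remained in the KPC-shV-labelled library and 12104 cells with a median of 4252 UMIs in the KPC-shZEB1-labelled library, and 36 barcodes occurred in both. Levels are UMIs per 1000000 UMIs of a class (CPM), and where a pair of values is given the first belongs to the KPC-shV-labelled library. Intervals in parentheses are 95% intervals that cover counting error only. They are exact, except those of antigen-presenting folds and of changes in gene pair ratios, which rest on a normal approximation on the log scale. Every ratio divides the level in the KPC-shZEB1-labelled library by that in the other, with no replicate and no test. Zeb1, the gene aimed at by the hairpin, was read first. Its level in tumour-like cells was 167 CPM and 188 CPM (ratio 1.13, 1.09–1.17), so its RNA was not lower where the label names the hairpin against it.

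MHC class II molecules are pairs of an α and a β chain that display peptides from endosomes to CD4+ T cells. The invariant chain, encoded by Cd74, fills the groove until it is cut down to a short fragment, H2-DM then exchanges that fragment for peptides, and H2-O restrains H2-DM. Transcription of the class II genes depends largely on Ciita, itself a member of the set. It is a coactivator that does not bind DNA itself and acts through factors seated on paired X and Y boxes in the promoters. In mice, B cells, dendritic cells and many macrophages carry class II at rest, other cells such as endothelium and some epithelium can acquire it under interferon gamma, and T cells lack it.

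On the GRCm38 (mm10) build, 8 of the 10 genes lay within 224 kb of chromosome 17, from 34092340 to 34316674. Of the chains that present peptide, H2-Aa (ENSMUSG00000036594) ran from 34282744 to 34287823 on the minus strand, H2-Ab1 (ENSMUSG00000073421) from 34257689 to 34269419 on the plus strand, and H2-Eb1 (ENSMUSG00000060586) from 34305867 to 34316674 on the plus strand. The editing chains H2-DMa (ENSMUSG00000037649), H2-DMb2 (ENSMUSG00000037548) and H2-DMb1 (ENSMUSG00000079547) began at 34119541, 34143307 and 34153072 on the plus strand. H2-Oa (ENSMUSG00000024334) and H2-Ob (ENSMUSG00000041538), the chains that restrain them, began at 34092340 and 34238903 on the same strand. Ciita (ENSMUSG00000022504) occupied bases 10480059 to 10528418 of chromosome 16, plus strand, in 19 exons of its longest transcript. The H2-DMb1 transcript shared 37.6% of its stretches of 31 bases with H2-DMb2, so reads of this pair may have been split between them. Their separate levels are therefore uncertain. In the last 500 bases, toward the 3′ end, 25.3% of the H2-DMb1 stretches were shared with H2-DMb2 and 0.851% of the H2-DMb2 stretches with H2-DMb1. H2-Oa was covered over its whole length by the antisense gene BC051537, H2-DMa overlapped Brd2, and Ciita overlapped Dexi on the opposite strand. Whether strand was used in counting was not given in the sources used here.

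The promoters are shown because the genes moved together across cell classes, as described further on. RefSeq windows of 300 bases (GRCm38.p6, from 250 bases before to 50 bases after a start site) were read for 7 of the genes. H2-Ab1, Ciita and Cd74 were not read. Motifs were chosen after these windows had been looked at. The X box was sought as GCAAC or as AACNNATGA, which overlap where the former runs into the latter, and the Y box as GATTGG, on both strands. Of 32851 windows of this length, 35.2%, 2.85% and 16.1% held these letters, and 177 windows (0.539%) held either X form 10 to 40 bases ahead of the Y form. Of the 7 genes, 6 had the pair, with 27 to 32 bases from the start of X to the start of Y. H2-DMa had no such pair in its 2 windows. Their start sites, at 34122832 and 34125518, lay inside the annotated H2-DMa gene, which begins at 34119541. The windows thus left its annotated start unread, and a lack of the pair in H2-DMa is not read from them. The stretches below are 5′ to 3′ on the strand of the gene, with the X and Y letters in capitals, from chr17:34287855-34287924 (minus strand) for H2-Aa, chr17:34305755-34305824 for H2-Eb1, chr17:34145106-34145175 for H2-DMb2, chr17:34092283-34092352 for H2-Oa and chr17:34238795-34238864 for H2-Ob (plus strand).
H2-Aa: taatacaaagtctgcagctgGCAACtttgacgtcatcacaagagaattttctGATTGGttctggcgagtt
H2-Eb1: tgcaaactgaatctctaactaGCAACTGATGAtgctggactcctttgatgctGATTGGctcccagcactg
H2-DMb2: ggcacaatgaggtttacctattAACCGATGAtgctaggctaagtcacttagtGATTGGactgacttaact
H2-Oa: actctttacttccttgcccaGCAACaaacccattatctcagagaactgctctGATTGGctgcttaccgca
H2-Ob: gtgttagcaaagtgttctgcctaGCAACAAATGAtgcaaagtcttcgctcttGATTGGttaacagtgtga
In these stretches the letters GATTGG lay 44 to 91 bases before the start site of the RefSeq window. For H2-DMb2 and H2-Oa that site, at 34145249 and 34092379, lay inside the annotated gene, which begins at 34143307 and 34092340. The H2-DMb2 stretch thus lay inside the gene, and 13 bases of the H2-Oa stretch lay in an annotated exon. The X box was more varied, with GCAAC alone in H2-Aa and H2-Oa, AACNNATGA alone in H2-DMb2, and both in H2-Eb1 and H2-Ob. The pair of H2-DMb1 lay within an annotated exon, at chr17:34153077-34153146, and is not printed. A match of letters is a description of the window and not a site of binding.

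The professional antigen-presenting classes held most of the class II RNA in both tumors. Summed over the 10 genes, the level stood at 23296 CPM (22730–23873) and 26615 CPM (26258–26976) in cDC1-like cells, dendritic cells that carry Xcr1. The cDC2-like cells, marked by Cd209a, held 21091 CPM (20755–21430) and 27457 CPM (27256–27660). Macrophage-like cells held 14033 CPM and 19442 CPM, B-like cells 13958 CPM and 15955 CPM, mature DC-like cells 6082 CPM and 9818 CPM, and pDC-like cells 4340 CPM and 6013 CPM. Monocyte-like cells stood lowest of the phagocytes, at 1983 CPM (1905–2062) and 3905 CPM (3770–4043). Clusters left unsplit, because their monocyte and macrophage scores were close or because genes of another class led them, held 6741 CPM and 12294 CPM. Some of these rest on few cells, 12 and 35 for cDC1-like and 37 and 100 for mature DC-like cells.

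All other classes lay below the monocyte-like cells. Tumour-like cells held 1024 CPM (1013–1035) and 2398 CPM (2381–2414), endothelial-like cells 788 CPM (755–821) and 2482 CPM (2410–2556), fibroblast-like cells 645 CPM (630–661) and 1555 CPM (1532–1579), and granulocyte-like cells 643 CPM (633–653) and 1992 CPM (1969–2015). T-like cells, which should lack the genes, held 652 CPM (616–689) and 1609 CPM (1576–1641). In the KPC-shV-labelled library the intervals of neighbours overlapped from endothelial-like through acinar-like, T-like, fibroblast-like and granulocyte-like to NK-like cells, in part through the wide interval of the acinar-like cells (625–921). Endothelial-like cells nevertheless lay clear of T-like, fibroblast-like, granulocyte-like and NK-like cells, among which no order can be read in full. In the KPC-shZEB1-labelled library the tumour-like and endothelial-like intervals overlapped, and so did those of T-like and fibroblast-like cells. The lowest antigen-presenting class exceeded the highest of the 4 other classes by 1.94 and 1.57 times.

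**Figure D1:**
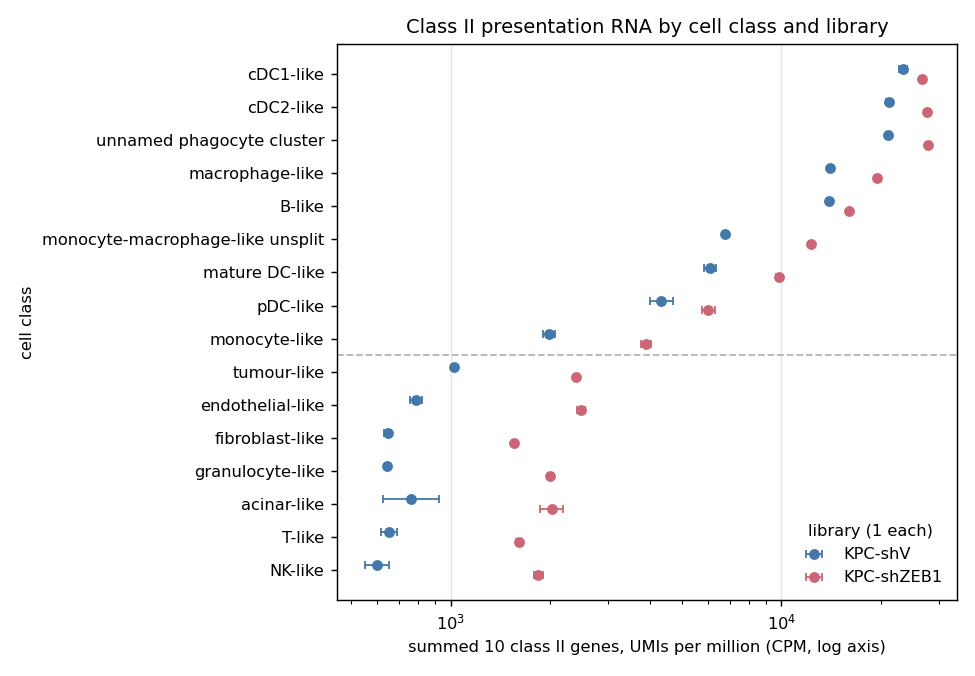
Summed CPM of the 10 genes (log axis) by cell class, 1 point per library with exact Poisson 95% intervals. The classes above the dashed line, antigen-presenting cells and phagocytes, lie between 1983 and 27754 CPM, those below it between 601 and 2482 CPM, and each point of the KPC-shZEB1-labelled library lies to the right of its partner. Pericyte-like cells, at 1330 and 1193 CPM, are not drawn.

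Averaged as geometric means, the 6 antigen-presenting classes (B-like, cDC1-like, cDC2-like, mature DC-like, monocyte-like and macrophage-like) exceeded the 4 other classes by 13.5-fold (13.3–13.7) in the KPC-shV-labelled library and by 6.92-fold (6.84–7.00) in the KPC-shZEB1-labelled library. In KPC-shV, 9 of the 9 members with a fold reached 5-fold, where 2.75% of 9413 genes did, and H2-Ob had no fold because mature DC-like cells held 0 UMIs of it. In the KPC-shZEB1-labelled library, 9 of 10 members reached 5-fold, where 1.61% of 11460 genes did. The exception was H2-DMb1, at 3.87-fold (3.58–4.19), which had 5.54-fold (4.88–6.30) in the other library. The steepest folds in the KPC-shV-labelled library were those of H2-Oa at 33.9 (18.5–61.9) and H2-DMb2 at 25.5 (18.9–34.5), which came to 7.85 (5.91–10.4) and 9.55 (7.63–11.9) in the KPC-shZEB1-labelled library. The smaller folds in the latter library went with higher levels in the 4 other classes, described below. Summed over all kept cells, the genes took 3853 CPM and 8626 CPM, and 72.6% and 78.2% of their UMIs came from antigen-presenting cells (those 6 classes with the unsplit clusters), which made up 16.7% and 32.2% of cells. These shares leave out pDC-like cells (581 and 1996 UMIs) and a phagocyte cluster without a class name (44242 and 73174 UMIs), of 389963 and 1025961 UMIs in all.

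H2-Aa, H2-Ab1 and H2-Eb1 are the chains that present peptide. In B-like cells H2-Aa stood at 2820 and 2972 CPM, H2-Ab1 at 1594 and 2197 CPM, and H2-Eb1 at 2166 and 2277 CPM. In cDC2-like cells the same genes stood at 3879 and 4732 CPM, 3410 and 5147 CPM, and 4488 and 5086 CPM. Macrophage-like cells held 2736 and 3370 CPM of H2-Aa, 2066 and 3260 CPM of H2-Ab1, and 2639 and 3265 CPM of H2-Eb1. Mature DC-like cells, which carry Ccr7, had less of all 3 chains, with 541.9 and 1144 CPM of H2-Ab1. These are counts of 3′ UMIs that were not scaled to length, so an order of levels between genes is not read from them.

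Cd74 (ENSMUSG00000024610, chromosome 18 from 60803848 to 60812652 on the plus strand), the invariant chain, was the most counted member in each of these classes. It stood at 6205 and 7231 CPM in B-like cells, at 9424 and 10838 CPM in cDC1-like cells and at 5993 and 8702 CPM in macrophage-like cells. Outside the antigen-presenting classes it stood at 449 and 1094 CPM in tumour-like cells, 259 and 652 CPM in fibroblast-like cells and 252 and 856 CPM in granulocyte-like cells. T-like cells held 270.2 and 680 CPM. Its share of the class II UMIs was 44.5% and 45.3% in B-like cells, 41.5% and 42.2% in T-like cells and 42.7% and 44.4% over all antigen-presenting classes. Over 17 groups of cells the share ran from 37.4% (acinar-like) to 48.5% (pDC-like) in the KPC-shV-labelled library and from 34.9% (pericyte-like) to 51.6% (pDC-like) in the other.

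The genes of the regulatory pairs divided the antigen-presenting classes more sharply than the presenting chains did. H2-Ob, a chain of the inhibitor H2-O, stood at 284 CPM (254–316) and 291 CPM (275–307) in B-like cells, against 39.2 and 42.9 CPM in cDC2-like cells and 2.53 and 5.42 CPM in macrophage-like cells. H2-Oa, its partner, stood at 134 and 154 CPM in B-like cells, 61.6 and 90.9 CPM in cDC2-like cells and 4.00 and 8.04 CPM in macrophage-like cells. H2-DMb2 followed the same division, with 317 and 296 CPM in B-like cells, 254 and 220 CPM in cDC2-like cells and 13.7 and 18.2 CPM in macrophage-like cells. H2-DMb1 did not, with 110 and 160 CPM in B-like cells, 276 and 322 CPM in cDC2-like cells and 266 and 348 CPM in macrophage-like cells. For each UMI of H2-DMb1 there were 2.88 (2.35–3.54) and 1.85 (1.69–2.03) UMIs of H2-DMb2 in B-like cells, 0.919 (0.747–1.13) and 0.683 (0.613–0.760) in cDC2-like cells, 0.179 and 0.244 in cDC1-like cells, and 0.0514 (0.0443–0.0594) and 0.0522 (0.0475–0.0572) in macrophage-like cells. The α chain H2-DMa was spread more evenly, at 166 and 230 CPM in B-like cells, 420 and 526 CPM in cDC2-like cells and 284 and 424 CPM in macrophage-like cells.

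**Figure D2:**
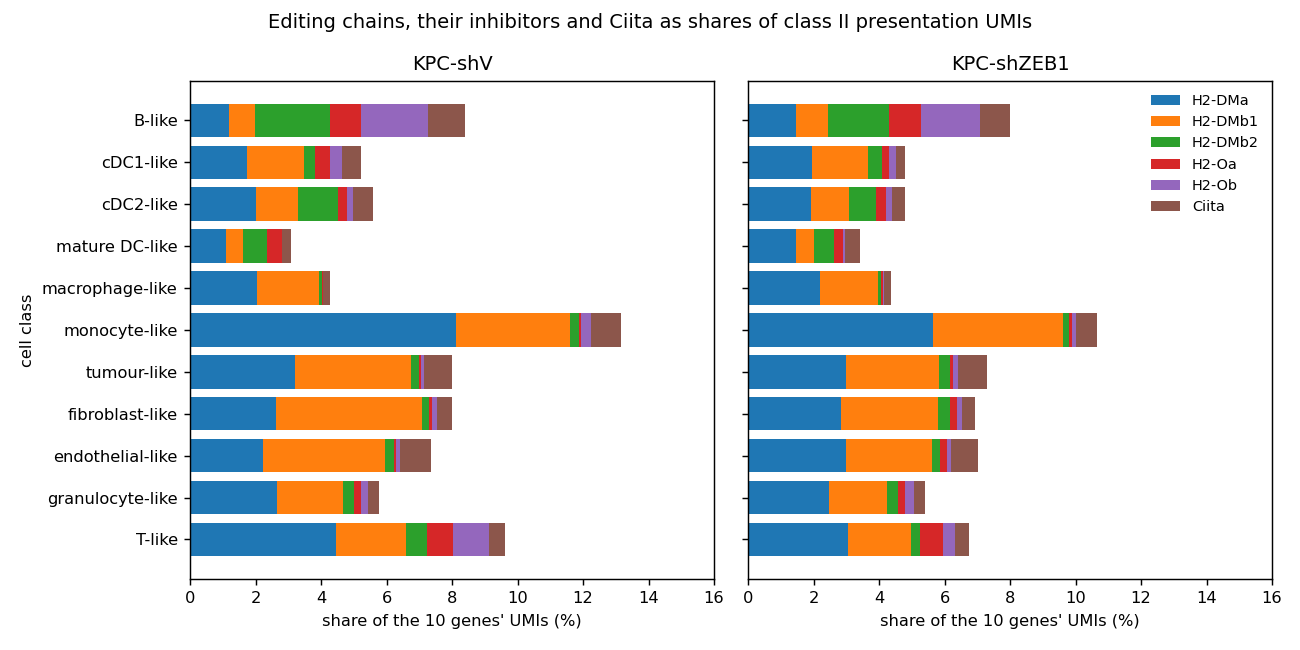
Share of the 10 genes' UMIs (%, stacked bars from 0) taken by H2-DMa, H2-DMb1, H2-DMb2, H2-Oa, H2-Ob and Ciita in 11 classes, 1 panel per library. H2-DMb2 and H2-Ob fill much of the B-like bar and are thin in the macrophage-like bar, and H2-DMa takes 8.11% and 5.64% of the monocyte-like UMIs.

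Ciita, the coactivator of the set, was highest in B-like cells, at 160 CPM (138–185) and 146 CPM (135–158). The cDC1-like cells held 138 and 66.6 CPM, cDC2-like cells 129 and 110 CPM, mature DC-like cells 17.01 and 44.4 CPM, macrophage-like cells 27.6 and 41.3 CPM and monocyte-like cells 18.4 and 24.6 CPM. Levels were lower outside these classes, with 8.60 CPM (7.66–9.64) and 21.8 CPM (20.3–23.4) in tumour-like cells, 7.46 and 20.4 CPM in endothelial-like cells, 3.01 and 6.29 CPM in fibroblast-like cells, 2.10 and 6.61 CPM in granulocyte-like cells and 3.11 and 6.70 CPM in T-like cells. Macrophage-like cells thus held less Ciita than B-like cells at a like summed level of the set in KPC-shV. The share of class II UMIs that were Ciita was 1.15% and 0.917% in B-like cells, 0.840% and 0.909% in tumour-like cells, 0.947% and 0.823% in endothelial-like cells, 0.477% and 0.417% in T-like cells and 0.300% and 0.300% over all antigen-presenting classes.

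The libraries were compared within each class, as 1 tumor against 1 tumor. The summed level was higher in the KPC-shZEB1-labelled library in each named class except the 14 and 10 pericyte-like cells, at 0.897 (0.752–1.07), and the ratios were smallest in B-like, cDC1-like and cDC2-like cells. Without the cell that held the most class II UMIs in each library, pericyte-like cells had a ratio of 2.85 (2.21–3.70). B-like cells had a ratio of 1.14 (1.12–1.16), cDC1-like cells 1.14 (1.11–1.18), cDC2-like cells 1.30 (1.28–1.33), macrophage-like cells 1.39 (1.38–1.39), mature DC-like cells 1.61 (1.55–1.69) and monocyte-like cells 1.97 (1.87–2.08). Tumour-like cells had 2.34 (2.31–2.37), fibroblast-like cells 2.41 (2.34–2.48), T-like cells 2.47 (2.33–2.62), NK-like cells 3.07 (2.81–3.36), granulocyte-like cells 3.10 (3.04–3.16) and endothelial-like cells 3.15 (2.99–3.32). In the last class 1 of the 82 cells of the KPC-shZEB1-labelled library, with 56078 UMIs in all, held 21.0% of the class II UMIs. Without the cell with the most class II UMIs in each library, endothelial-like cells held 759 and 2024 CPM, a ratio of 2.67 (2.53–2.82), below the granulocyte-like ratio.

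In tumour-like cells, 10 of 10 members were at least 1.5 times higher in the KPC-shZEB1-labelled library, where 13% of 16416 genes were. Their median log2 ratio was 1.31, and that of all genes tested there was 0.05. H2-Ab1 stood at 158 and 414 CPM, a ratio of 2.63 (2.54–2.71), and Ciita had 2.53 (2.21–2.91). H2-DMb1 had the smallest ratio, 1.88 (1.75–2.01), and the scarce H2-Oa the largest, 3.32 (2.14–5.32), from 27 and 89 UMIs. Fibroblast-like cells gave 10 of 10, where 7.1% of genes were as much higher, with H2-Ab1 at 98.2 and 289 CPM and H2-Oa read from 7 and 33 UMIs. In granulocyte-like cells it was 10 of 10, where 24% of genes were, and all genes tested were shifted by a median log2 ratio of 0.28. Endothelial-like cells held enough UMIs, at least 30 over both libraries, for 7 members, and all 7 were higher, where 10.6% of genes were. Among T-like cells 8 of 10 were higher, where 10% of genes were, with H2-DMb2 at 4.14 and 4.47 CPM and H2-Ob at 7.25 and 6.19 CPM as the others.

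In B-like cells 0 of 10 members reached 1.5 times in either direction, where 13.4% of genes were higher and 3.91% lower by that much, and the ratios ran from 0.912 (0.774–1.08) for Ciita to 1.45 (1.203–1.77) for H2-DMb1. In cDC2-like cells 1 of 10 was at least 1.5 times higher, where 13.5% of genes were, namely H2-Ab1 with 1.51 (1.45–1.58). Macrophage-like cells gave 3 of 10, where 9.75% of genes were higher: H2-Ab1 at 1.58 (1.56–1.599), H2-Oa at 2.01 (1.49–2.74) and H2-Ob at 2.15 (1.48–3.18). Mature DC-like cells gave 6 of the 9 members with enough UMIs, where 13.9% of genes were higher, with Ciita at 2.61 (1.19–6.79) and H2-DMa at 2.19 (1.46–3.42). In monocyte-like cells it was 5 of 7, where 10.2% of genes were, with Cd74 at 833 and 1887 CPM. The cDC1-like cells gave 1 of 10 higher, where 18.4% of genes were, and 2 of 10 lower, where 11.2% of genes were. The lower genes were Ciita, with 38 and 53 UMIs and a ratio of 0.483 (0.312–0.753), and H2-Oa, with 31 and 46 UMIs and a ratio of 0.514 (0.319–0.838).

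**Figure D3:**
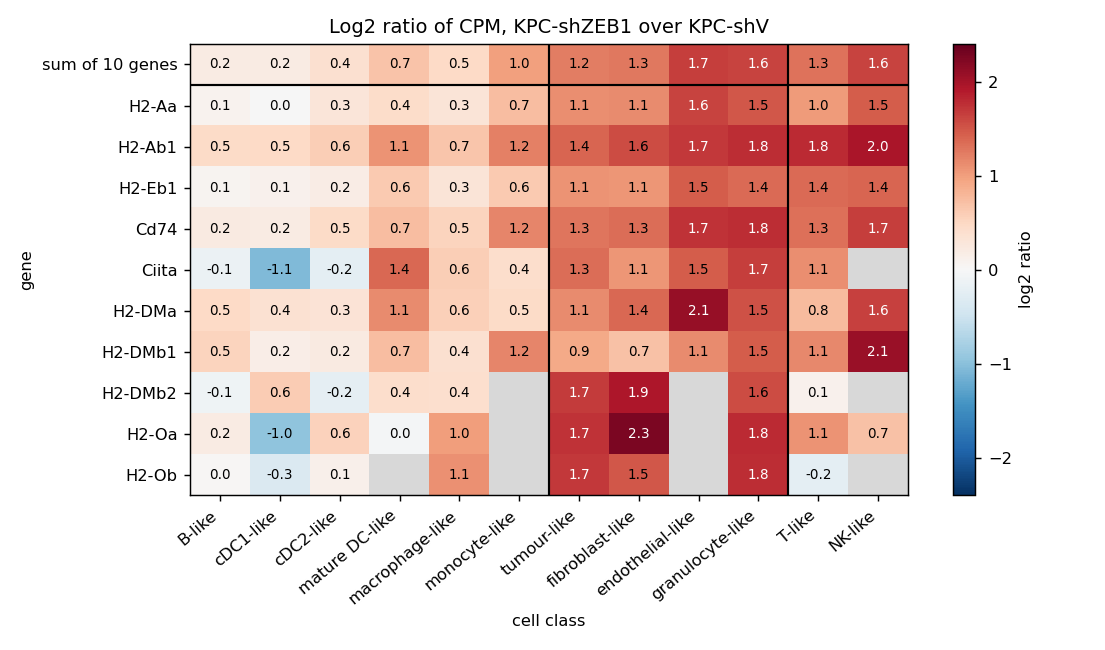
Log2 ratio of CPM, KPC-shZEB1-labelled over KPC-shV-labelled library, for the sum and each of the 10 genes (rows) in 12 classes (columns). Grey cells had under 30 UMIs over both libraries. The columns from tumour-like to NK-like cells are red almost throughout, while B-like and cDC cells stay near 0 and Ciita and H2-Oa are blue in cDC1-like cells.

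In the KPC-shZEB1-labelled library, RNA that marks macrophages was also higher in most classes, and RNA of B cell genes in some. C1qa, C1qb and C1qc, complement genes of macrophages, summed to 210 and 604 CPM in T-like cells (ratio 2.87), 247 and 600 CPM in tumour-like cells (2.43), 194 and 551 CPM in fibroblast-like cells (2.84), 194 and 668 CPM in endothelial-like cells (3.44) and 287 and 785 CPM in granulocyte-like cells (2.74). B-like cells, too, had 237 and 723 CPM (3.05). Over 7 classes not named as antigen-presenting (the 5 just given without B-like cells, with NK-like and acinar-like cells), the C1q ratio ran from 2.43 to 3.44. The class II ratio there ran from 2.34 to 3.15. The 14 and 10 pericyte-like cells were not among them and had a C1q ratio of 0.870 and a class II ratio of 0.897. Class II UMIs per C1q UMI in those 7 classes ran from 2.24 to 4.15 in the KPC-shV-labelled library and from 2.54 to 4.00 in the KPC-shZEB1-labelled library. Over all antigen-presenting classes there were 2.33 and 2.77. Of the 7 marker genes (C1qa, C1qb, C1qc and the B cell genes Cd79a, Cd79b, Ms4a1 and Ebf1), 0 were at 0 UMIs in tumour-like, fibroblast-like, endothelial-like, granulocyte-like and T-like cells of either library. All 7 were at least 1.5 times higher in tumour-like and granulocyte-like cells of the KPC-shZEB1-labelled library, where 13% and 24% of all genes were. In fibroblast-like cells it was 6 of 7, where 7.1% of genes were, and Ebf1, also a fibroblast gene, was the other. In T-like cells it was 3 of 7, the C1q genes, where 10% of genes were, and Ms4a1 was lower by that much. Endothelial-like cells had at least 30 UMIs for 4 of the genes, and 3, the C1q genes, were higher, where 10.6% of genes were. The B cell genes summed to 73.5 and 89.0 CPM in T-like cells and to 896 and 746 CPM in endothelial-like cells. Ebf1 alone stood at 888 CPM in endothelial-like cells of the KPC-shV-labelled library, so that sum is not read as RNA of B cells. Ptprc, the pan-leukocyte gene, had 48.2 and 78.8 CPM in the tumour-like class (1.63, 1.54–1.74). The part of this RNA in the class II ratios was not tested.

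**Figure D4:**
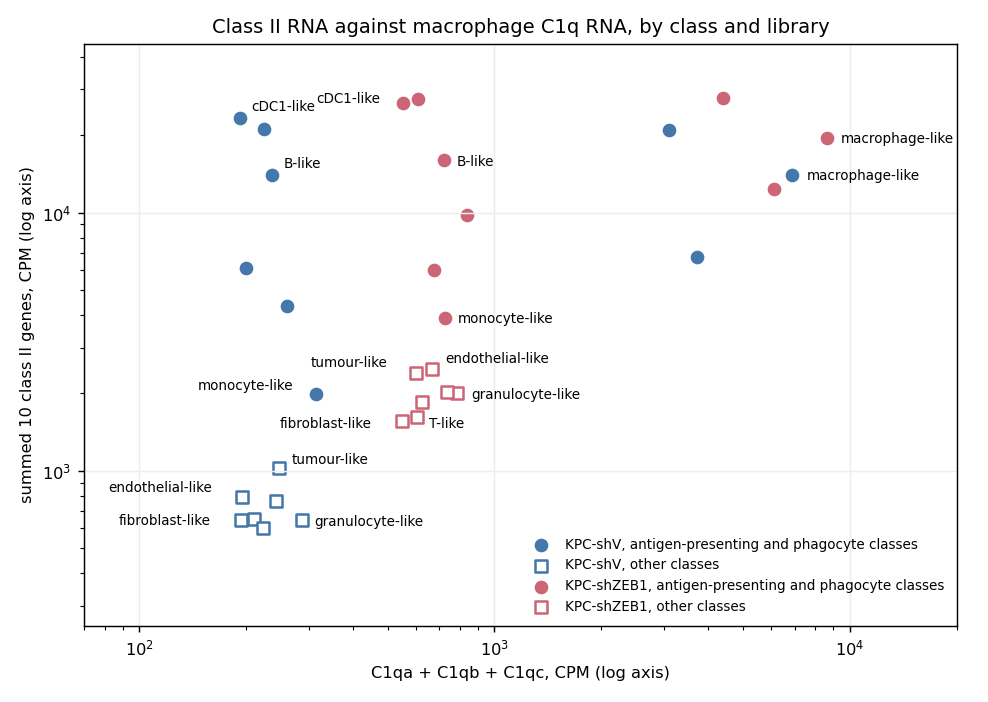
Summed CPM of the 10 class II genes against summed CPM of C1qa, C1qb and C1qc (both log axes), 1 point per class and library. Open squares, the classes not named as antigen-presenting, form a low group per library, at 601 to 1024 CPM of class II for KPC-shV and 1555 to 2482 CPM for KPC-shZEB1, and the latter group also lies further right. Pericyte-like cells are not drawn.

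Set against T-like cells of the same library, fibroblast-like cells had no greater share of class II RNA among their UMIs. They had 0.990 times the T-like sum in CPM (0.932–1.05) and 0.967 times (0.943–0.992). These are shares and not amounts per cell, since median depth was 28551 and 27636 UMIs in fibroblast-like and 5315 and 4782 UMIs in T-like cells. How far the T-like level stands for background in classes of other depth was not tested. Granulocyte-like cells had 0.987 times (0.931–1.05) and 1.24 times (1.21–1.27). Tumour-like cells had 1.57 times (1.48–1.66) and 1.49 times (1.46–1.52), and endothelial-like cells 1.21 times (1.13–1.30) and 1.54 times (1.49–1.599). Without the most loaded cell of each library, the endothelial-like values came to 1.16 times (1.08–1.25) and 1.26 times (1.21–1.31). Among members, Ciita in tumour-like cells was 2.77 times (1.26–7.61) and 3.25 times (2.36–4.61) its T-like level, and H2-DMb1 2.59 times (1.77–3.95) and 2.20 times (1.89–2.57). Endothelial-like Ciita was 2.403 times (0.938–7.28) and 3.05 times (1.89–4.91) the T-like level, and fibroblast-like Ciita 0.969 times (0.401–2.83) and 0.938 times (0.624–1.43). H2-Ob was lower in tumour-like than in T-like cells, at 0.135 times (0.0706–0.272) and 0.516 times (0.351–0.774). In all, 6 and 8 of 10 members lay above T-like cells in tumour-like cells with an interval clear of 1, 4 and 7 in endothelial-like, 2 and 1 in fibroblast-like and 2 and 4 in granulocyte-like cells. The members below T-like cells in the same way numbered 2 and 2, 3 and 1, 5 and 4, and 3 and 1.

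Counted cell by cell, with every cell thinned to 1000 UMIs, class II UMIs were many in most B-like and DC-like cells. They varied more among monocyte-macrophage-like cells and were few in most tumour-like, fibroblast-like, granulocyte-like and T-like cells. The median B-like cell held 14 and 16 such UMIs, the median DC-like cell 13 and 22 and the median monocyte-macrophage-like cell 6 and 15. At least 10 were found in 86.2% and 92.7% of B-like cells, 58.8% and 75.7% of DC-like cells and 39.5% and 61.4% of monocyte-macrophage-like cells. Within these, monocyte-like cells had medians of only 1 and 2, with 5.04% and 7.95% at 10 or more. Mature DC-like cells had medians of 3 and 5, with 21.6% and 35% at 10 or more. The median tumour-like cell held 1 and 2, the median fibroblast-like cell 0 and 1, the median granulocyte-like cell 0 and 2, and the median T-like cell 0 and 1. At least 10 were found in 3.32% (2.46–4.36) and 3.69% (2.77–4.79) of tumour-like cells, 0.0291% and 0.241% of granulocyte-like cells and 0 of 285 and 0 of 936 T-like cells.

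A single UMI or more was present after thinning in 54.9% and 85.7% of tumour-like cells, 42.8% and 78.6% of fibroblast-like cells, 48.6% and 80.5% of endothelial-like cells and 46.0% and 85.8% of granulocyte-like cells. In T-like cells it was 43.2% (37.3–49.1) and 79.4% (76.6–81.9). The fibroblast-like shares lay no higher than the T-like ones, and no expression is read from them. By level, H2-DMb1 alone of the members stood above T-like cells there in both libraries, at 2.05 times (1.38–3.16) and 1.501 times (1.26–1.79). Before thinning, at median depths of 24055 and 23929 UMIs in tumour-like and 5315 and 4782 UMIs in T-like cells, the shares were 95.6% and 99.8% of tumour-like and 91.9% and 99.8% of T-like cells.

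By gene, at the same thinned depth, Cd74 was found in nearly all B-like cells, 100% and 99.8%, and in 84.9% and 95.3% of macrophage-like cells. In T-like cells it was found in 20.4% and 47.3%, in fibroblast-like cells in 20.3% and 46.6% and in tumour-like cells in 33.0% and 62.4%. H2-Ob, the inhibitor chain, was found in 22.1% and 25.0% of B-like cells, 0.350% and 0.668% of macrophage-like cells and 1.05% and 0.427% of T-like cells. H2-DMb2 gave 25.3% and 27.5% of B-like cells, 0.7001% and 1.74% of macrophage-like cells and 0.351% and 0.321% of T-like cells. The H2-Ob intervals of macrophage-like and T-like cells overlapped in both libraries, and no expression is read from its macrophage-like shares. Those of H2-DMb2 overlapped in the KPC-shV-labelled library and lay apart in the other, at 1.14–2.53% and 0.0661–0.934%. Ciita gave 10.4% and 12.6% of B-like cells, 2.10% and 4.47% of macrophage-like cells, 1.22% and 2.16% of tumour-like cells and 0.351% and 0.534% of T-like cells.

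**Figure D5:**
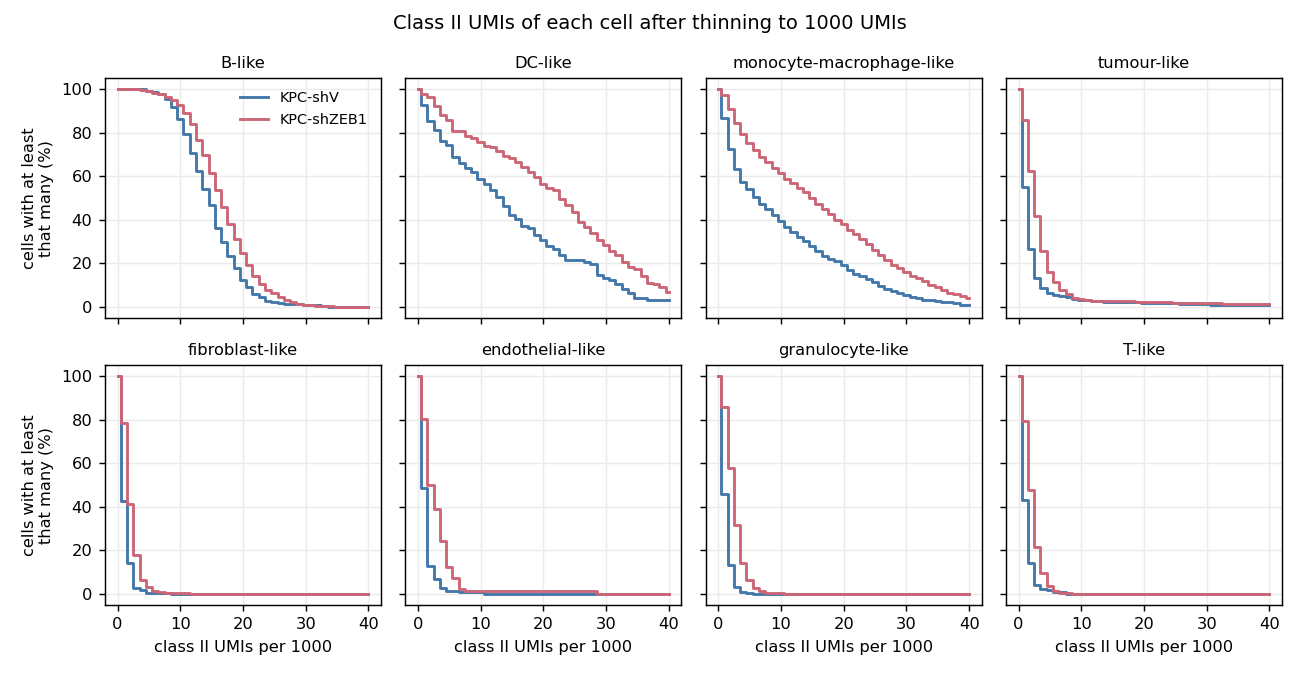
Share of cells (%) with at least the number of class II UMIs given on the x axis after thinning each cell to 1000 UMIs, in 8 classes, 1 line per library. B-like, DC-like and monocyte-macrophage-like curves stretch to the right, the other classes fall steeply, and the tumour-like curve alone among those others keeps a thin tail, with 3.32% and 3.69% of cells at 10 or more.

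The tail of tumour-like cells lay in 1 cluster. This cluster, led by S100a14, Dbf4 and Lgals2, had 291 and 294 cells and a median of only 2188 UMIs. It held 47 of the 49 and 47 of the 53 tumour-like cells with at least 10 class II UMIs. There they made up 16.2% (12.1–20.9) and 15.99% (11.99–20.7) of cells, against 0.168% (0.0204–0.607) and 0.524% (0.193–1.14) of the other tumour-like cells. Tumour-like cells with at least 10 had medians of 2401 and 2933 UMIs, and the others 24767 and 24415 UMIs. The summed level of the cluster was 5733 and 6421 CPM, a ratio of 1.12 (1.08–1.16). Its antigen-presenting marker RNA stood at 1874 and 2356 CPM, against 229 and 604 CPM in the cluster led by Cntn5, Prg4 and Ugt2b5, and the part of other cells in these barcodes was not tested.

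Without that cluster, tumour-like cells held 894 and 2270 CPM, a ratio of 2.54 (2.51–2.57), and 10 of 10 members remained at least 1.5 times higher, the lowest ratio being 1.98 for H2-DMb1. The C1q genes then stood at 204 and 547 CPM, a ratio of 2.68 (2.61–2.76). Ciita stood at 8.72 and 21.9 CPM. The clusters led by Cntn5, Prg4 and Ugt2b5 and by Ifi202b, Prl2c3 and Lypd8 had ratios of 2.63 (2.58–2.67) and 2.72 (2.66–2.78). A cluster led by Ralyl held 9 and 227 cells, and the ratio of all tumour-like cells without it was 2.47. The Cntn5 cluster made up 50% and 28.9% of tumour-like cells and the Ifi202b cluster 29.2% and 33.0%.

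Within macrophage-like cells the level depended on the cluster. Cells led by Adamdec1, H2-M2 and Ccl24 held 22286 and 25440 CPM (ratio 1.14, 1.13–1.15), and cells led by H2-M2, Calhm6 and Dnase1l3 held 19448 and 25527 CPM (1.31, 1.29–1.33). Cells led by Mmp12, Gpnmb and Arg1 had less, with 6373 and 10009 CPM (1.57, 1.54–1.6003), and cells led by Fcrls, Pf4 and Ccl12 had 7027 and 15194 CPM (2.16, 2.10–2.22). The make-up also differed between the libraries. The Calhm6 cluster was 7.47% and 23.3% of macrophage-like cells, and a cluster led by Ms4a7, Ccl8 and Ccl12, at 12527 and 17779 CPM (1.42, 1.401–1.44), was 31.9% and 14.4%, so the class ratio of 1.39 mixes level with make-up. Among the unsplit clusters, that led by Fcna, Bmp2 and Lyve1 had 2467 and 6324 CPM (2.56, 2.48–2.65). The 6 granulocyte-like clusters with most cells in both libraries were alike, at 613 to 679 CPM and 1781 to 2088 CPM.

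The members did not move by one factor. Per UMI of H2-Aa there were 0.565 UMIs of H2-Ab1 in B-like cells of the KPC-shV-labelled library and 0.739 in the other library, a change of 1.31 times (1.23–1.39). That change lay above 1 in 17 of 17 cell groups that did not overlap, from 1.05 to 1.70 with a median of 1.32, and its interval was clear of 1 in 14 of them. H2-Eb1 per UMI of H2-Ab1 fell in turn, by a median factor of 0.758 (from 0.541 to 0.841), below 1 in 17 of 17 groups and with the interval clear of 1 in 14. Cd74 per UMI of H2-Ab1 was lower in 16 of 17. The groups share their 2 libraries and are not replicates. All of these pairs hold H2-Ab1, so the changes are not separate results. In macrophage-like cells H2-Aa and H2-Eb1 had ratios of 1.23 and 1.24 between the libraries, and H2-Ab1 1.58. In T-like cells H2-Aa and H2-Eb1 lay further apart, at 2.04 and 2.56, with H2-Ab1 at 3.47. In macrophage-like cells, the best counted, the changes were 1.28 (1.26–1.30) for H2-Ab1 over H2-Aa and 0.784 (0.770–0.798) for H2-Eb1 over H2-Ab1.

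Other genes of the pathway were counted in the same way. Of 7 genes of class II transcription, the RFX factors Rfx5, Rfxap and Rfxank, Creb1 and the NF-Y subunits Nfya, Nfyb and Nfyc, 0 were at least 1.5 times higher in tumour-like, fibroblast-like, granulocyte-like or T-like cells, where 13%, 7.1%, 24% and 10% of all genes were, and their median log2 ratio in tumour-like cells was -0.01. Rfx5 stood at 7.37 and 6.93 CPM there. Of 7 genes of the interferon gamma response (the receptor genes Ifngr1 and Ifngr2, the kinases Jak1 and Jak2, and Irf1, Nlrc5 and Socs1), 0 were as much higher in tumour-like, fibroblast-like or T-like cells, where 13%, 7.1% and 10% of all genes were. In granulocyte-like cells it was 2 of 7, near the 24% of all genes there, and in B-like cells 3 of 7, where 13.4% of all genes were. Irf1, a factor induced by that cytokine, stood at 222 and 314 CPM in tumour-like cells (1.42, 1.38–1.46) and at 248 and 239 CPM in fibroblast-like cells (0.964, 0.914–1.02). Its level was 241 and 416 CPM among granulocyte-like cells (1.73, 1.67–1.80) and 71.5 and 161 CPM among B-like cells (2.25, 1.79–2.86). Nlrc5, the coactivator of class I genes, had ratios of 1.25 (1.19–1.31) in tumour-like, 1.35 (1.15–1.596) in fibroblast-like, 1.72 (1.62–1.83) in granulocyte-like and 1.93 (1.49–2.52) in B-like cells.

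Among 6 lysosomal processing genes 1 was higher in tumour-like cells, where 13% of all genes were, namely Ctss, the protease that trims the invariant chain, at 93.3 and 161 CPM (1.73, 1.65–1.80). Ctsl, which does so in thymic epithelium, stood at 455 and 343 CPM (0.755). Of 5 genes of turnover and partners, 4 were higher in tumour-like cells, against the same 13%. Cd83, which steadies class II at the surface, stood at 26.5 and 61.1 CPM (2.30, 2.13–2.49), Cd86, a costimulator, at 37.1 and 80.2 CPM (2.16, 2.02–2.31), Cd40, an activating receptor of antigen-presenting cells, at 2.16 and 7.10 CPM (3.29, 2.53–4.32), and March1, the ligase that removes class II, at 4.52 and 8.44 CPM (1.87, 1.53–2.28). Fibroblast-like cells had the same count, 4 of 5, where 7.1% of genes were higher, and in monocyte-macrophage-like cells it was 0 of 5, where 10.4% of genes were higher. H2-Eb2, a β chain next to H2-Eb1, had a ratio of 2.91 (1.64–5.38) in tumour-like cells from 0.489 and 1.42 CPM. All these lists stand beside the marker RNA given above, whose share in them was not tested.

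Across 26 points of class and library, the genes outside the set whose log2(CPM + 1) followed its sum most closely, of 7528 considered, were Fgd2 (Pearson r 0.934), Gm20513 (0.931), Cd83 (0.880), Hepacam2 (0.874) and Ly86 (0.866). Gm20513 is annotated antisense to H2-Eb1 over 2204 bases. For Ciita alone they were Hepacam2 (0.878), Ildr1 (0.840), Ryr1 (0.808), Gm20513 (0.793) and Cd86 (0.792). Points share their libraries, and the coefficients are descriptions only.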

How the data were processed

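The deposited files hold raw UMI counts by gene and cell barcode of 10x 3′ libraries. Per the labels, the authors produced them in Cell Ranger 7.0.1 with the mm10 build. Whether reads in introns were counted was not given in the sources used here. Depth was 130941086 UMIs over 12594 barcodes (KPC-shV) and 143461224 UMIs over 13271 barcodes (KPC-shZEB1).

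Barcodes were kept from 500 genes upwards, between 1000 and 60000 UMIs and up to a mitochondrial share of 15%, and cells with a Scrublet score above 0.2 were removed as doublets (315 cells, 2.69%, and 343 cells, 2.76%). Both libraries were clustered together in scanpy 1.11.5 and leidenalg 0.10.2, on 30 components of 3000 variable genes with 20 neighbours at resolution 1, and phagocytes again on 20 components of 2000 variable genes. This gave 29 clusters and 16 phagocyte clusters. The 10 genes and the pathway lists were left out of the variable genes, but C1q and B cell genes were not. A cluster was named "X-like" from its markers when at least 3 were detected in 10% of its cells at 3 times the median cluster, and the naming rule was set after cluster names had been seen. Phagocyte clusters whose monocyte and macrophage scores were close, and 1 with macrophage markers that genes of another class led, were left unsplit and counted as monocyte-macrophage-like.

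UMIs were summed per class and library and scaled by the total of the class (CPM), with Poisson intervals (exact) for levels, exact conditional intervals for ratios and Clopper-Pearson intervals for shares, from scipy 1.17.1. Antigen-presenting folds and changes in gene pair ratios had approximate intervals, normal on the log scale. Ratios were read where a gene had at least 30 UMIs over both libraries, and 1.5 times was the size named as higher or lower. Calculation of the conditional ratio intervals was tested on simulated data. With 1 library per group no test was made. The 10 genes, the lists and the markers were chosen with earlier results of these data known. Named genes are the 10 members in every class, list genes with at least 30 UMIs, and the 5 genes nearest in pattern with at least 50 CPM at some point. Promoter windows were matched by symbol to RefSeq, and coordinates are 1-based from the GRCm38 annotation. Alternatives changed the cell filter, doublet removal, resolution, scaling, averaging over cells and subtraction of the T-like level, and others were added after seeing the data. Of the interferon gamma list, 1 gene is not reported here.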

Additional observations from a re-analysis of the deposited data

Results flagged for a closer look

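A phagocyte cluster that took no class name, led by Ear2, Dcstamp and Mmp12 with 116 and 158 cells, held 20929 CPM and 27754 CPM of the 10 genes. It was outside the comparisons above and stood far over the T-like levels of 652 and 1609 CPM. Its ratio was 1.33 (1.31–1.34), and at least 10 class II UMIs after thinning were found in 94.0% and 98.7% of its cells.

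In 3 cases the interval of a ratio lay below 1 while that of the same gene lay above 1 in other classes, and the difference between classes was not tested. Cd74, the invariant chain, had a ratio of 0.6995 (0.523–0.9297) in pericyte-like cells, which numbered 14 and 10, against 16 classes above 1. Within the pericyte-like cells of the KPC-shV-labelled library, 1 cell held 71.6% of the class II UMIs. Ciita had 0.483 in cDC1-like cells against 7 classes above 1, and H2-Oa had 0.514 there against 8 classes above 1. Over the same cDC1-like cells H2-Aa had 0.999 (0.936–1.07) and H2-Ab1 1.39 (1.30–1.49). These came from 12 and 35 cells, and the single most loaded cDC1-like cell held 15.3% and 5.86% of the class II UMIs.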

How the results depend on the processing

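Of 68 alternative values, 24 stayed within the counting interval, 44 moved outside it and 0 changed direction. All 51 ratios of the sum that could be calculated stayed above 1, and settings without a value are not in these counts. Without doublet removal the ratios were 1.22 in B-like, 1.29 in DC-like, 2.03 in tumour-like, 2.53 in fibroblast-like and 3.57 in endothelial-like cells, and the antigen-presenting folds 11.9 and 6.36. With the 8% highest doublet scores removed they were 2.00 in tumour-like, 2.22 in fibroblast-like and 2.48 in endothelial-like cells, with folds of 15.4 and 9.40. A looser cell filter gave 2.50 in tumour-like and 3.52 in endothelial-like cells, with folds of 15.5 and 7.97. Resolution 2 gave 1.58 in monocyte-macrophage-like and 2.31 in tumour-like cells, with folds of 15.9 and 8.34. The tumour-like class held 1478 and 1438 cells in the report, but 1022 and 1281 without doublet removal, 921 and 1090 with the 8% removed and 939 and 1178 at resolution 2. Averaging each cell's own CPM gave 1.41 in DC-like, 1.67 in monocyte-macrophage-like, 1.67 in tumour-like, 2.34 in fibroblast-like and 2.79 in endothelial-like cells, with folds of 10.8 and 6.35. Scaling to the median gene gave 1.54 in monocyte-macrophage-like and 2.93 in granulocyte-like cells, with folds of 12.4 and 6.61. Subtraction of the T-like level gave 1.08 in B-like, 1.27 in DC-like, 1.48 in monocyte-macrophage-like, 2.12 in tumour-like and 6.42 in endothelial-like cells. It gave no value for fibroblast-like cells, whose level lay below it in both libraries, so that no ratio remained there. Granulocyte-like cells, whose KPC-shV level lay below it, and the folds had no value either.

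Chosen after seeing the data, leaving out the unsplit clusters gave 1.45 in monocyte-macrophage-like cells, leaving out the low-UMI cluster gave 2.54 in tumour-like cells with folds of 13.9 and 7.02, and leaving out the Ralyl cluster gave 2.47 with a fold of 6.82 in the KPC-shZEB1-labelled library. Leaving out the endothelial-like cell with most class II UMIs in each library gave 2.67 in endothelial-like cells with a fold of 7.28 in the KPC-shZEB1-labelled library. The cause of these movements was not tested. No paired analysis was possible because each group had 1 library and the labels carry no replicate numbers, and for the same reason no library could be left out. Depth limited H2-Oa, H2-Ob and H2-DMb2 most, which had under 30 UMIs in several small classes.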
